A study of Mus musculus with 2 samples.

Results

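The EGF family ligands and their ErbB receptors were examined in mammary basal cells, which form the outer, contractile layer of mammary ducts and alveoli. The members were 10 genes chosen by name from the 49492 genes of the count table: the ligands *Egf*, *Areg*, *Ereg*, *Btc*, *Hbegf*, *Tgfa* and *Nrg1*, and the receptors *Egfr*, *Erbb2* and *Erbb3*. Basal cells (lin- CD24+ CD29hi, the lineage antibodies being CD45, CD31 and TER119) were sorted from wild-type mice, female and 8 to 10 weeks old when given clodronate by the study's methods, and both libraries were labelled day 7. CL basal came from mice injected with clodronate liposomes (CL), vesicles that kill the macrophages that take them up. Ctrl basal came from control mice, which the series describes as saline treated and the sample label as receiving no treatment; how many mice contributed cells was not given in the sources used here. There was 1 library per group, so no value below has a replicate check, and every interval covers counting error only and compares these 2 libraries, not the conditions.

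EGF family ligands are made as membrane proteins, are cut free by metalloproteases and bind receptors on the same or a neighbouring cell. Egf, Tgfa and Areg bind Egfr, the ligands Hbegf, Btc and Ereg bind both Egfr and Erbb4, and Nrg1 binds Erbb3 and Erbb4. Erbb2 has no known ligand and acts as a partner of the other receptors, and Erbb3 has little kinase activity of its own and signals through its partners. In the mammary gland, Areg is known as the estrogen-induced ligand of duct growth at puberty, made by hormone-sensing luminal cells and acting on stromal Egfr.

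Areg was the member whose abundance was highest in Ctrl basal and also one of the members that differed most between the libraries, so the 250 bases before its start site are shown with those of *Tgfa*, a ligand of the same receptor that differed little. The sequences are from RefSeq on GRCm38.p6, given 5′ to 3′ on the gene's strand, and end at the base before the start site; 6 of the 10 members had such a window. Capitals mark TGACGTCA (the cyclic AMP response element, CRE) and TATAAA (the TATA box); TGANTCA (AP-1), which the CRE letters do not contain, was searched too, all on both strands.
Areg, chr5:91139349-91139598, plus strand: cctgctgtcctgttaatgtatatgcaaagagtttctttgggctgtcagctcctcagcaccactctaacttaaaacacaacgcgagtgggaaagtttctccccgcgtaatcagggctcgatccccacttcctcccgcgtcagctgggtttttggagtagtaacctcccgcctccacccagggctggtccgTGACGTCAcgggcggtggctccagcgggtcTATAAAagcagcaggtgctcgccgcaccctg
Tgfa, chr6:86194972-86195221, plus strand: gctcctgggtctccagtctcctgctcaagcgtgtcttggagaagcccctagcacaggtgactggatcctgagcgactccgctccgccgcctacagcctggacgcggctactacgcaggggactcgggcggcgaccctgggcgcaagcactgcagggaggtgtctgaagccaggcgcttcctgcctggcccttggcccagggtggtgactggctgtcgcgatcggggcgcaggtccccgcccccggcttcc

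The *Areg* window held a CRE from 61 to 54 bases and a TATA box from 31 to 26 bases before the start site. Of 32851 windows of this length, 1.55% held the CRE letters, 12.4% the TATA letters and 6.75% the AP-1 letters. The windows of *Tgfa*, *Egf*, *Btc*, *Egfr* and *Erbb2* held none of these letters. A match is a description of the sequence, and no match says only that the letters were not in this window.

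Among the ligands, *Areg* was lower in CL basal, *Hbegf* was slightly higher, *Ereg* was lower, and *Tgfa* and *Nrg1* were nearly level. Among the receptors, *Erbb3* was lower, while *Egfr* and *Erbb2* were nearly level. Of the 10 members, 9 had counts in the 2 libraries that summed to at least 20, the minimum used here; *Egf* did not. Of these 9 genes, 2 were at least 2-fold lower in CL basal, *Areg* and *Erbb3*, and 0 were at least 2-fold higher. Over all 17356 genes with at least 20 counts, 4.78% were at least 2-fold lower and 2.07% at least 2-fold higher. At 1.5-fold the same 2 members were lower and 0 were higher, against 11.7% and 6.34% of all such genes. The median log2 fold change of the 9 members was -0.12, and that of all such genes was -0.01.

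**Figure D1:**
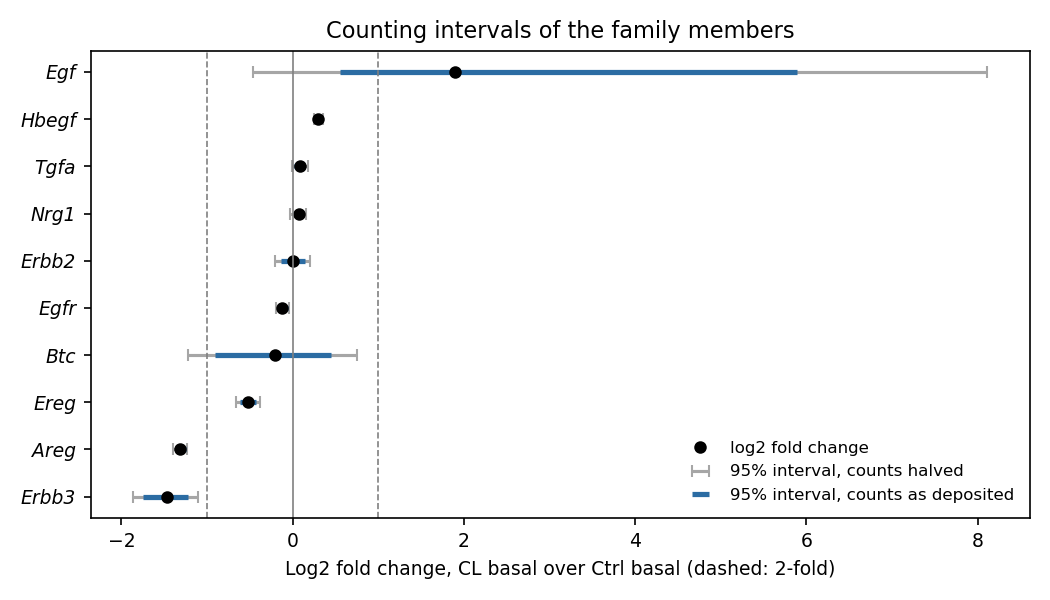
Log2 fold change of CL basal over Ctrl basal for each member (points), with 95% counting intervals from the counts as deposited (blue) and from halved counts (grey). *Areg* (-1.31) and *Erbb3* (-1.47) lie beyond the dashed 2-fold line, and the interval of *Egf* is by far the widest.

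*Areg* (chromosome 5, 91139599 to 91148432, GRCm38), which encodes amphiregulin, had 3094 counts in CL basal against 7665 in Ctrl basal. It was thus 2.48-fold lower in CL basal, a log2 fold change of -1.31 (95% exact binomial interval -1.37 to -1.25). Fewer cells of a type and less RNA per cell cannot be told apart in such bulk libraries. Of the 1505 genes that summed to at least 10000 counts, 9 (0.598%) were at least 2-fold lower, *Areg* among them. *Areg* lies near the lower bound of this class, which has no upper bound. The luminal markers *Krt19*, *Krt7* and *Aldh1a3* are also among the 9. Its exons overlapped no other gene of the table.

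*Erbb3* (chromosome 10, 128567523 to 128589652), the neuregulin receptor, had 164 counts in CL basal against 457 in Ctrl basal. This was a 2.77-fold lower level, or -1.47 (-1.75 to -1.22) on the log2 scale. Among the 6410 genes whose counts summed to at least 100 and under 1000, 3.26% were at least 2-fold lower.

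Markers of luminal cells, the inner layer of the gland and the neighbouring population of the sort, were lower in CL basal together with *Areg* and *Erbb3*. Of 24 luminal markers in 3 lists, 23 had at least 20 counts, all 23 were lower and 10 were at least 2-fold lower, with a median log2 fold change of -0.88. In counts scaled to effective library size (CPM), they summed to 3550 CPM with CL and 5960 CPM in control, and only the milk protein gene *Csn2* was at 0 in both. *Krt8*, a keratin of luminal cells, had 53150 and 86539 counts (-0.71), and *Pgr*, the progesterone receptor, had a log2 fold change of -0.96. The 8 genes shared by luminal cells, led by keratins and claudins, ranged from -1.65 to -0.26, the 8 hormone-sensing genes from -1.34 to -0.16 and the 7 measured luminal progenitor and alveolar genes from -3.00 to -0.28. The value of *Areg* lies within the ranges of all 3 lists, and that of *Erbb3* within those of the first and the last. The fibroblast (-1.86 to 0.10) and Schwann cell (-2.20 to -0.02) markers, read below, have ranges that also hold both *Areg* and *Erbb3*. The ranges of the other cell types hold neither. The value of -3.00 is that of *Lalba*, with 2 and 30 counts. The part of luminal RNA in the lower *Areg* and *Erbb3* was not tested.

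Markers of the labelled cell type were present: the 12 basal and myoepithelial markers were all detected and summed to 21900 CPM with CL and 20900 CPM in control. They had a median log2 fold change of 0.08, from -0.23 to 0.33. The 10 macrophage markers summed to 13.7 and 17.2 CPM. Of the 6 with at least 20 counts, 5 were lower (median -0.35), and the intervals of 2 lay below 0. *Csf1r* was the higher one, with 89 and 64 counts (0.46). Under the minimum, *Adgre1* had 10 and 7 counts, *Cd163* 11 and 6, *Fcgr1* 4 and 0, and *C1qb* 6 and 12. Macrophage RNA thus had no single direction. Fibroblast markers were lower in 6 of 7 genes with a median of -0.49, and summed to 208 and 255 CPM. Adipocyte markers were lower in all 3 genes with at least 20 counts, with a median of -0.74, and summed to 92.1 and 124 CPM. This sum was mostly *Fabp4* (3465 and 4648 counts). *Plin1* had 12 and 30 counts, and *Adipoq*, under the minimum, 10 and 5. Endothelial markers were lower in 4 of 5 genes (median -0.32), with sums of 291 and 364 CPM. The 6 lymphoid markers summed to 3.38 and 3.42 CPM, with *Nkg7* at 0 in CL basal, and the 4 Schwann cell markers, all 4 lower with a median of -0.30, to 145 and 150 CPM, mostly *Sox10* (5278 and 5333 counts). The fibroblast, adipocyte, endothelial, macrophage and Schwann cell medians thus had the same sign as *Areg* and *Erbb3*, and their part in those values was not tested.

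**Figure D2:**
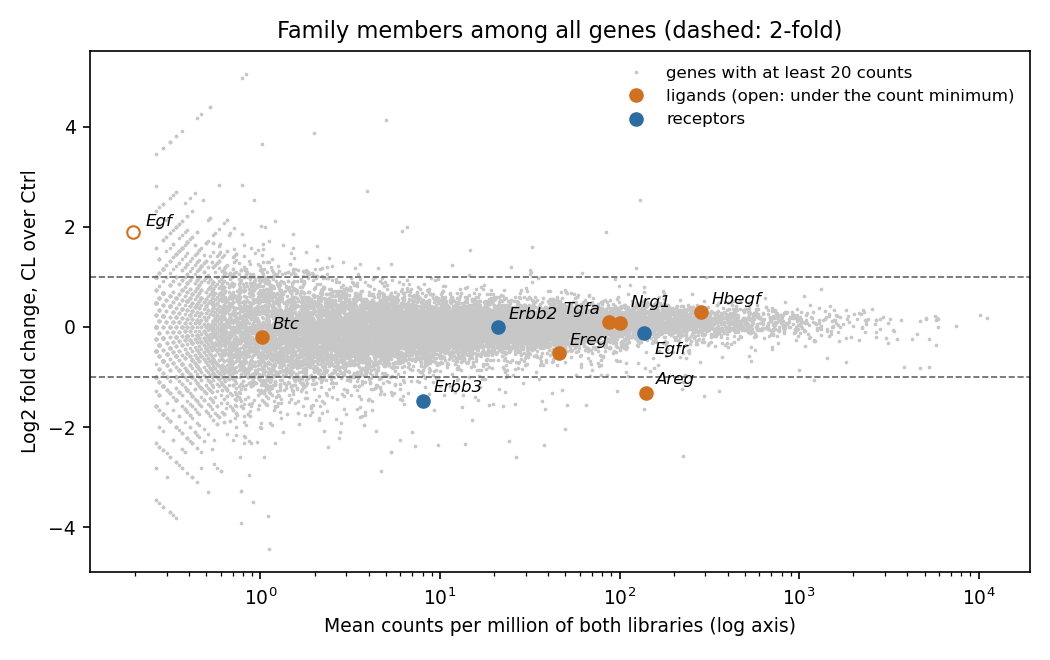
Log2 fold change against mean CPM of both libraries (log axis) for 17356 genes (grey), member ligands (orange) and member receptors (blue). *Areg* and *Erbb3* lie below most genes of like abundance, and *Egf* (open circle) has too few counts for the minimum.

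The gene next to *Areg* in the family's chromosome 5 cluster, *Ereg* (91074622 to 91093646), encodes epiregulin. It had 1446 counts in CL basal against 2073 in Ctrl basal. Its log2 fold change of -0.52 (-0.62 to -0.43) stayed under 1.5-fold. Its exons shared 141 of 4128 bases with *Gm42532* on the other strand, which had 406 and 535 counts; since the use of strand in counting was not given in the sources used here, reads of the pair cannot be told apart there. *Btc* (91357261 to 91402994), the gene of betacellulin, had 36 and 42 counts. Its difference of -0.21 on the log2 scale had an interval of -0.91 to 0.45, so none was detectable at this depth.

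The cluster spans 375.5 kb and also holds *Epgn* (91027464 to 91035215), the gene of epigen, a further Egfr ligand that is not a member. *Epgn* had 338 counts in CL basal against 480 in Ctrl basal (log2 fold change -0.51, -0.71 to -0.31). The 4 ligand genes of the cluster thus had log2 fold changes of -0.51, -0.52, -1.31 and -0.21 in their order along the chromosome. The other 12 genes with at least 20 counts in the cluster and within 500 kb of it had a median of -0.29, from -2.88 to 0.68, of which 8 were lower and 4 higher. The lowest of them, *Gm19619*, lies between *Areg* and *Btc* and had 4 counts in CL basal against 42 in Ctrl basal. This window was chosen after the values of the cluster had been seen.

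*Hbegf* (chromosome 18, 36504929 to 36515805), which encodes heparin-binding EGF-like growth factor, had the most counts of any member in both libraries, 12044 against 9728 with CL basal first. It was 1.24-fold higher in CL basal, a log2 fold change of 0.30 (0.27 to 0.34), and 83.2% of all genes with at least 20 counts had a lower value. *Tgfa* (chromosome 6, 86195223 to 86275719), transforming growth factor alpha, had 3480 and 3273 counts in the same order, a log2 fold change of 0.09 (0.02 to 0.15). *Nrg1* (chromosome 8, 31814551 to 32884029), neuregulin 1, had 3958 and 3773 counts, with 0.07 (0.00 to 0.13). If mates of a read pair were counted separately, as the excess of even counts allows, the count divided by 2 is nearer to the number of fragments. The intervals of *Tgfa* and *Nrg1* from halved counts included 0 (-0.01 to 0.18 and -0.03 to 0.16). *Nrg1* shared 482 of its 10351 exonic bases with the opposite-strand gene *Gm26578*, which had 806 and 776 counts.

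*Egf* itself (chromosome 3, 129677565 to 129755316) was barely detected, with 13 counts in CL basal against 2 in Ctrl basal. The ratio was 6.49 with a 95% interval of 1.47 to 59.2, and from halved counts the interval ran from 0.726 to 275 and included equality. A count of 0 would have allowed up to 3 counts, or 0.078 CPM for CL and 0.0782 CPM for Ctrl, and the Ctrl basal count lay below that limit.

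*Egfr* (chromosome 11, 16752203 to 16918158), the receptor of most of these ligands, had 5064 counts in CL basal against 5477 in Ctrl basal. Its log2 fold change of -0.12 (-0.17 to -0.06) was small beside those of *Areg* and *Erbb3*. *Erbb2* (chromosome 11, 98412470 to 98437716) had 812 and 811 counts, and its interval of -0.14 to 0.14 lay within 1.5-fold on both sides.

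Levels of different genes were compared per length, as CPM per kilobase of exon. In Ctrl basal, *Areg* was the most abundant ligand at 164 (95% exact Poisson interval 161 to 168), above *Hbegf* at 107 (105 to 109). In CL basal this order was turned, with *Hbegf* at 132 (130 to 134) and *Areg* at 66.2 (63.9 to 68.6). *Areg* and *Hbegf* ranked high in both libraries, above at least 95.3% of the genes with at least 20 counts.

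The next ligands were far below this pair. *Tgfa* and *Ereg* both stood at 13.1 in Ctrl basal, with intervals of 12.7 to 13.6 and 12.5 to 13.7, and could not be told apart. *Nrg1* followed at 9.50 (9.20 to 9.81). With CL treatment, *Tgfa* was at 13.9 (13.5 to 14.4), *Nrg1* at 9.95 (9.64 to 10.3) and *Ereg* at 9.11 (8.65 to 9.59). The last pair lay close together, and their intervals from halved counts overlapped (9.51 to 10.4 and 8.46 to 9.80). *Btc* stood at 0.242 in Ctrl basal and 0.207 in CL basal, and *Egf* at 0.00462 and 0.030. *Btc* thus lay above 10.8% and 10.3% of all genes with at least 20 counts.

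Of the receptors, *Egfr* led in both libraries. Its level was 12.6 in Ctrl basal (12.3 to 12.9), against 11.6 with CL (11.3 to 12). *Erbb2* was second, at 4.06 and 4.05. *Erbb3* was lowest, at 1.98 in Ctrl basal (1.80 to 2.17), against 0.709 with CL (0.605 to 0.826). It lay above 45.0% of the genes with at least 20 counts in Ctrl basal and above 27.0% of them with CL.

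**Figure D3:**
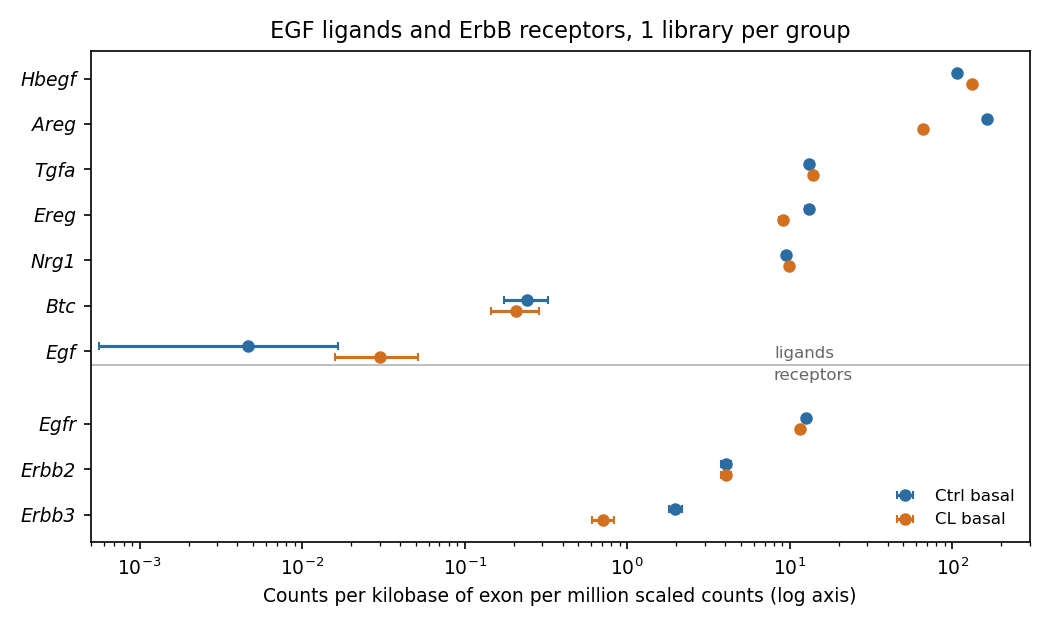
Level of each member in CPM per kilobase of exon (log axis), in Ctrl basal (blue) and CL basal (orange), with 95% Poisson intervals. *Hbegf* and *Areg* exchange first place between the libraries, while the order of the 3 receptors is the same in both.

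Within a library, the makeup of the ligand RNA needs no scaling between libraries. *Areg* made up 53.5% of the summed level of the 7 ligands in Ctrl basal and 28.6% in CL basal. *Hbegf* made up 34.8% and 57.0%, in the same order. The other ligands held at most 6.02% each. The ratio of *Areg* to *Hbegf* per length was 1.54 in Ctrl basal and 0.502 in CL basal, a log2 change of -1.62 (95% normal-approximation counting interval -1.69 to -1.55), and that of *Ereg* to *Hbegf* was 0.122 and 0.069 (-0.83, -0.93 to -0.72). The ratio of *Areg* to *Tgfa* changed by -1.40 (-1.49 to -1.31).

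Grouped by the receptors they bind, the ligands of Egfr alone (*Egf*, *Tgfa* and *Areg*) summed to a level of 178 for Ctrl and 80.2 for CL, a log2 ratio of -1.15, of which *Areg* made up 164 and 66.2. The ligands of both Egfr and Erbb4 (*Hbegf*, *Btc* and *Ereg*) summed to 120 and 141, a log2 ratio of 0.23, of which *Hbegf* made up 107 and 132. All 7 ligands together summed to 307 and 232.

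The receptors summed to 18.6 for Ctrl and 16.4 for CL. *Egfr* made up 67.6% of this in Ctrl basal and 70.9% in CL basal, *Erbb2* 21.8% and 24.7%, and *Erbb3* 10.6% and 4.33%. The ratio of *Erbb3* to *Egfr* changed by -1.37 on the log2 scale (-1.63 to -1.10), and that of *Erbb2* to *Egfr* by 0.11 (-0.04 to 0.27).

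**Figure D4:**
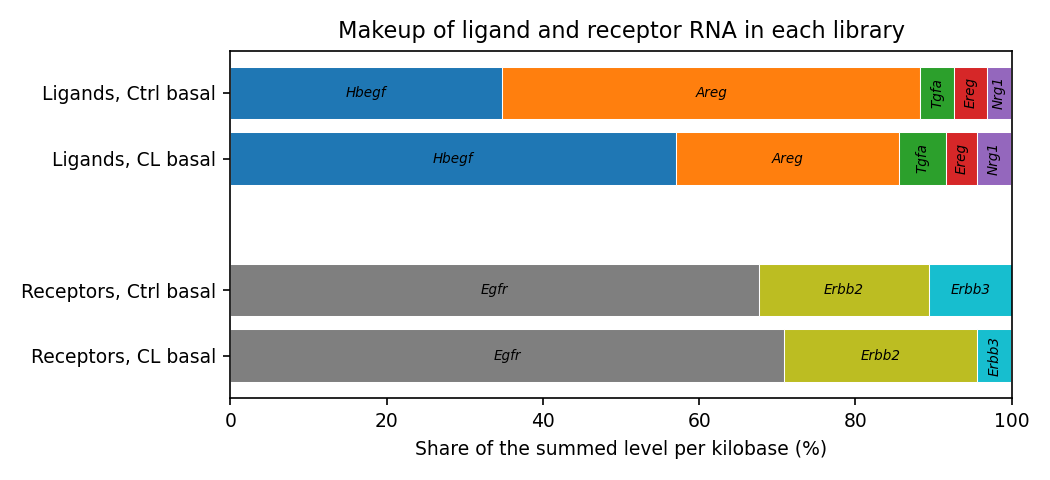
Share (%) of each ligand in the summed ligand level and of each receptor in the summed receptor level, per kilobase of exon, in each library. *Areg* is the largest ligand share in Ctrl basal (53.5%) and *Hbegf* in CL basal (57.0%); *Btc* and *Egf* are too small to see.

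Beyond *Epgn*, 4 further ligand and receptor genes of the family were read. *Nrg2*, a neuregulin, had 242 counts in CL basal against 122 in Ctrl basal, and its log2 fold change of 0.97 (0.67 to 1.31) was just short of 2-fold. *Nrg4* had 87 and 146 counts (-0.74, -1.15 to -0.36). Its value is uncertain, since *Fbxo22* on the other strand shares 368 of its 6075 exonic bases. The receptor *Erbb4*, which would bind the neuregulins, *Hbegf*, *Btc* and *Ereg*, had only 44 and 64 counts, a level of 0.0926 and 0.135 CPM per kilobase, and its difference of -0.52 had an interval of -1.13 to 0.03. *Nrg3* was at 0 in both libraries, which allows up to 3 counts in each. With *Epgn* included, 4 of these family genes had enough counts, and 0 of the 4 were past 2-fold. Over all genes with at least 20 counts, 4.78% were at least 2-fold lower and 2.07% at least 2-fold higher. Past 1.5-fold were *Nrg4*, lower, and *Nrg2*, higher, against 11.7% lower and 6.34% higher of all such genes.

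Of 8 genes that cut ligands free from the membrane or aid this cutting, 0 were past 2-fold. Over all genes with at least 20 counts, 4.78% were at least 2-fold lower and 2.07% at least 2-fold higher. The median log2 fold change of the 8 was -0.06, with 5 intervals below 0 and 2 above. Over all 17356 such genes, 4388 intervals lay below 0 and 4388 above. *Adam17*, the main protease of Areg, Hbegf and Tgfa, had 1070 counts in CL basal against 1177 in Ctrl basal (-0.14, -0.26 to -0.02), while *Adam12* was lowest at -0.77 (663 and 1128 counts) and *Rhbdf2*, which helps Adam17 to the cell surface, highest at 0.16. Of 26 adaptors and transducers between the receptors and the ERK, PI3K-AKT and STAT pathways, 0 were past 1.5-fold. Of all genes with at least 20 counts, 11.7% were at least 1.5-fold lower and 6.34% at least 1.5-fold higher. The 26 genes ran from -0.43 for *Gab2* to 0.31 for *Sos1*, with a median of 0.04.

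Negative regulators of the receptors and of ERK signalling were mostly slightly higher in CL basal. Of 19, 17 were higher and 2 lower, with a median log2 fold change of 0.18, and the intervals of 13 lay above 0. Over all 17356 genes with at least 20 counts, 48.3% were higher and 25.3% had an interval above 0, and over the 7097 genes with at least 1000 counts, whose intervals are narrower, 57.8% and 41.6%. *Errfi1*, which blocks the kinase of ErbB receptors, had 31720 counts in CL basal against 26002 in Ctrl basal (0.28, 0.26 to 0.31). *Lrig1*, a membrane protein that lowers ErbB receptor levels, had 4950 and 4124 counts (0.26, 0.20 to 0.32). Past 2-fold was 1 of the 19, against 4.78% lower and 2.07% higher of all genes with at least 20 counts. It was *Cblc*, a ubiquitin ligase of epithelia, with 17 and 70 counts (-1.92, -2.90 to -1.26). *Spry1*, named after its values were seen, was past 1.5-fold at 0.66 (925 and 582 counts), and 710 of its 2906 exonic bases were shared with *Gm42922* on the other strand.

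Transcripts known to rise with ERK signalling, a pathway that ErbB receptors and many others switch on, were also slightly higher: 11 of 12 were higher, 9 with an interval above 0, beside the same shares of all genes (48.3% and 25.3%) and of genes with at least 1000 counts (57.8% and 41.6%). The median log2 fold change was 0.31. The transcription factors *Etv4* (299 and 224 counts, 0.16 to 0.67) and *Fos* (28699 and 21578 counts, 0.38 to 0.43) both stood at 0.41, the highest value. *Ccnd1*, cyclin D1, was the lower one at -0.02 (-0.13 to 0.10). It shared 1100 of its 4709 exonic bases with *Oraov1* on the other strand, which had 702 and 700 counts. *Phlda1*, among the higher at 0.01, shared 727 of 2205 with *Gm28592* (17102 and 17014 counts), also on the other strand. None of the 12 was past 1.5-fold, against 11.7% lower and 6.34% higher of all genes with at least 20 counts. *Dusp6*, *Spry2* and *Spry4* stand in both of the last lists; without them 8 of 9 were higher, with a median of 0.29. With a smooth trend on expression level removed, the median of the 12 was 0.23 and that of the negative regulators 0.14.

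**Figure D5:**
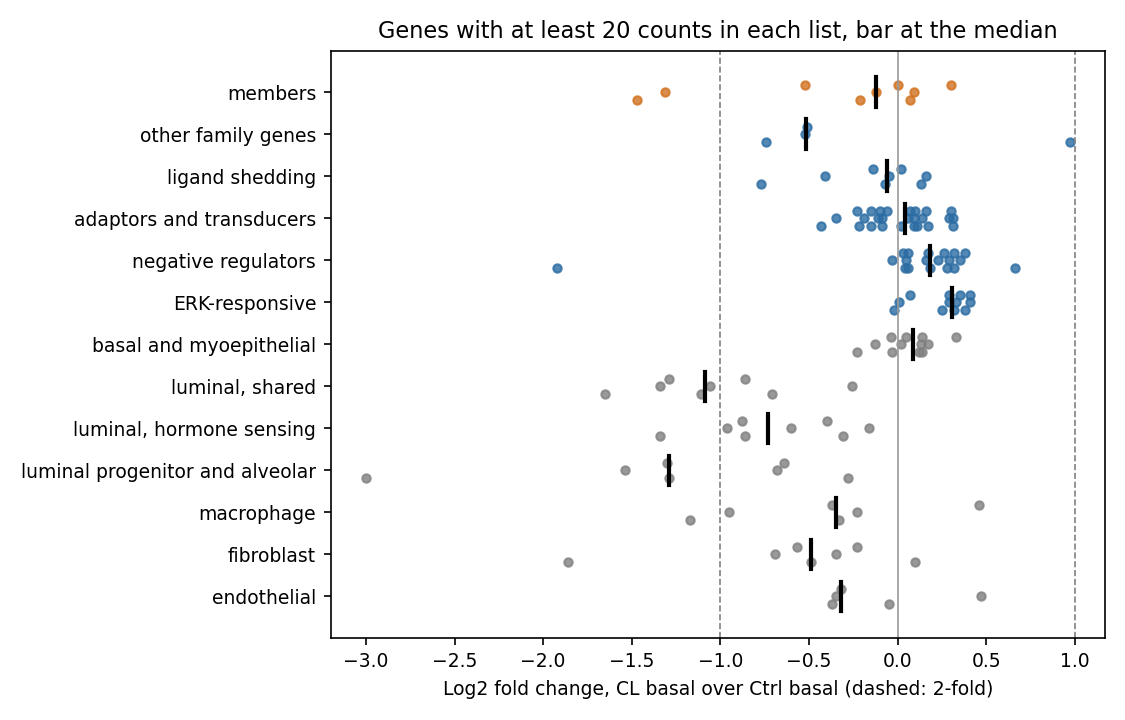
Log2 fold change of CL basal over Ctrl basal for the genes with at least 20 counts in each list (points), with the list median (bar); members in orange, related lists in blue, cell type markers in grey. The luminal lists lie to the left of 0, the basal list around 0, and the ERK-responsive list slightly to the right.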

How the data were processed

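RNA of sorted basal cells was sequenced on an Illumina HiSeq instrument, with 1 library per group. The authors deposited a table of counts of reads in the exons of each gene, not normalized, on GRCm38 (mm10) per the submitters' processing notes; the aligner, annotation release, use of strand and filters were not given in the sources used here. The deposited ratio and log2 ratio columns, which compare the 2 libraries, were not used. The exonic length in bases came from the deposited table. The start and end of 9 of the 10 members equalled those of GENCODE M21, in which all 10 are protein coding. Totals were 38962512 counts (CL basal) and 37846008 counts (Ctrl basal). Of counts from 1 to 20, 68.7% and 67.9% were even, against 49.9% and 49.7% of those above 1000, so mates may have been counted separately and intervals are then too narrow; PCR copies would narrow them further.

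Counts were scaled by TMM effective library sizes (edgeR 4.0.16, R 4.3.3; factors 0.9866 and 1.014), log2 fold changes used a prior count of 2, and genes were kept whose counts summed to at least 20. Intervals of 95% were exact binomial for ratios and exact Poisson for levels (scipy 1.17.1, Python 3.11.15). With 1 library per group the spread between replicates is unknown, so no p-value is given. The calculation was tested on simulated counts. Members and lists were chosen with earlier results of these data known. Named were the members; of each related list the genes past 2-fold, or otherwise the lowest and highest; and *Epgn*, *Erbb4*, *Errfi1*, *Lrig1* and *Adam17*. Alternatives were total counts, DESeq2 1.42.0 size factors or the upper quartile as scaling; a prior count of 0.5 or 5; no filter or at least 100 counts; a thinned deeper library; halved counts; the trend on mean expression removed; protein-coding genes alone; 1.5-fold; and TPM. Ratios within a library were added after seeing the data.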

Additional observations from a re-analysis of the deposited data

How the results depend on the processing

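*Areg* and *Erbb3* stayed at least 2-fold lower under each alternative, from -1.39 to -1.27 and from -1.51 to -1.41 on the log2 scale. Of 80 log2 fold changes of members under 8 alternatives each, 75 stayed within the main counting interval and 5 did not: *Hbegf* with total counts (0.27) and, without the trend on mean expression, *Hbegf* (0.22), *Areg* (-1.39), *Egfr* (-0.19) and *Nrg1* (-0.002). Without a filter on low counts *Egf* entered, so 1 member was higher by 2-fold and the median was -0.0588; with at least 100 counts *Btc* dropped out and the median was again -0.0588. *Nrg2* passed 2-fold with the upper quartile and without the trend, 1 gene of the further family genes in each case. At 1.5-fold, 1 further family gene was lower and 1 higher, 1 shedding gene was lower and 1 negative regulator higher. Over all genes, the 830 lower and 360 higher became 3207 and 1342 without a filter, 246 and 65 with at least 100 counts and 2029 and 1100 at 1.5-fold, and 214 higher among protein-coding genes alone. TPM values multiply all levels of a library by 1 constant, so the order of members is the same by construction. No paired analysis was possible because only 1 library stood for each group. Depth limits *Egf*, *Btc* and *Erbb4*.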

Other observations

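Genes of CXC chemokines lie beside the EGF ligand cluster on chromosome 5 and were looked at after its values had been seen. *Cxcl1* had 27111 counts in CL basal against 30698 in Ctrl basal, and *Cxcl2* had 5909 against 5314, log2 fold changes of -0.18 and 0.15. *Cxcl5* had 552 against 776 (-0.49) and *Cxcl3* had 103 against 186 (-0.84). *Cxcl15* had 213 against 300 (-0.49), and *Pf4*, the gene of platelet factor 4, had 18 against 12 (0.51). Of these 6 genes, *Cxcl2* and *Pf4* had the higher count in CL basal.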
